A study of Mus musculus with 4 samples.

Results

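The genes described here are the TGF-beta, activin and Gdf11 ligands and their receptors in the mouse hindlimb bud, with the TGF-beta-induced matrix gene Tgfbi. They were chosen by symbol, and all 10 named genes were found among the 25239 gene symbols of the count table: the ligand genes Tgfb1, Tgfb2, Tgfb3, Inhba, Inhbb and Gdf11, the receptor genes Tgfbr1, Tgfbr2 and Tgfbr3, and Tgfbi. RNA was sequenced from hindlimb cells of FVB embryos at embryonic day 11.5, of wild-type genotype apart from a reporter transgene that both groups carried. In that transgene, placed at the H11 safe-harbour locus, the human ZRS (the long-range limb enhancer of Shh) with the 404G>A change and the hsp68 promoter drives the fluorescent protein mCherry. Anterior mCherry+ cells were compared with central mCherry- cells, with 2 libraries of each, so position in the bud and reporter state differ together and cannot be told apart. Cells were separated by dissection and fluorescent sorting. The labels do not say whether the libraries of a group came from separate embryos, so p-values measure only the spread between these libraries, which may be technical.

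TGF-beta ligands are made as precursors, cut by proteases of the furin type and held latent in the matrix by binding proteins. Once released they bind the type II receptor TGFBR2, which phosphorylates the type I receptor TGFBR1, and the receptor pair activates SMAD2 and SMAD3, which enter the nucleus with SMAD4. Activins, dimers of the subunits encoded by Inhba and Inhbb, and GDF11 use activin type II receptors and reach the same SMADs. In the limb bud, TGF-beta signalling is known for its roles in tendon and joint progenitors and in the condensation of cartilage, and GDF11 is known for patterning along the body axis.

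Library totals lay between 30080925 and 33257383 counts. Of the 3 hindlimb genes, Pitx1 measured between 429.9 and 483 CPM (library-scaled counts, with TMM factors) and Tbx4 between 224.5 and 267.4 in the 4 libraries, and the forelimb gene Tbx5 reached at most 2.66 CPM. The third hindlimb gene, Isl1, was lower in anterior cells, at 4.56 and 0.68 against 22.05 and 23.6 CPM. The 8 limb mesenchyme markers summed to 1950 and 2070 CPM in the anterior libraries and to 1820 and 1940 in the central ones. These near sums hold opposite differences, since 3 of the 8 were called higher (Msx2, Prrx2 and Twist1) and 2 lower (Twist2 and Pdgfra). The summed levels of other cell types differed more. The 7 primitive erythroid markers summed to 3290 and 8390 CPM in anterior cells and to 5.39 and 8.31 in central cells. The 7 macrophage markers summed to 17.6 and 21.8 CPM in anterior cells and to 7.45 and 7.86 in central cells. Of these, 7 of 7 erythroid and 4 of 7 macrophage markers were called higher. The remaining lists were higher in central cells, with 4 of 6 tested chondrogenic, 5 of 6 tendon, 7 of 7 myogenic, 5 of 8 endothelial, 7 of 8 ectoderm and 2 of 3 nerve markers called lower in anterior cells. Summed levels in the anterior and then the central libraries were 301 to 412 against 1190 to 1500 CPM for 7 chondrogenic markers, 97.8 to 112 against 443 to 447 for 7 tendon and connective tissue markers, and 2.35 to 4.17 against 142 to 143 for 7 myogenic markers. They were 9.86 to 12.2 against 34.4 to 40.7 CPM for 8 endothelial markers, 9.95 to 10.1 against 50 to 160 for 8 surface ectoderm markers, and 5.66 to 6.42 against 20 to 25.6 for 5 Schwann precursor and nerve markers. The defining muscle genes Pax7 and Myog and the Schwann gene Sox10 had 0 counts in both anterior libraries, where 0 counts were taken to allow up to 3, or 0.0899 and 0.102 CPM. These are bulk measurements, in which fewer cells of a type and less RNA per cell cannot be told apart, and the part of these cell types in the differences below was not tested.

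**Figure D1:**
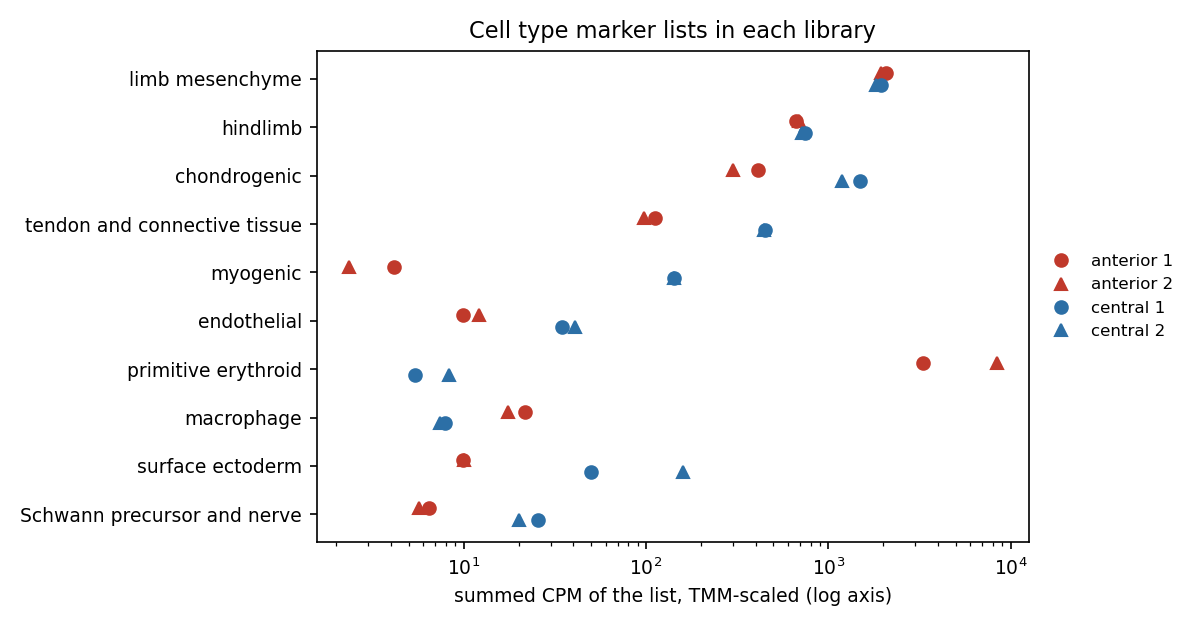
Summed CPM (TMM-scaled, log axis) of each cell type marker list in each library, with the forelimb gene Tbx5 left out. Red symbols are anterior, blue are central, circles replicate 1 and triangles replicate 2. The mesenchyme and hindlimb lists lie together, the erythroid list is higher in both anterior libraries (3290 and 8390 against 5.39 and 8.31), and ectoderm differs between the central replicates (50 and 160).

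Tgfb2, Tgfb1 and the 3 receptor genes Tgfbr1, Tgfbr2 and Tgfbr3 were lower in anterior than in central cells, Gdf11 was slightly higher, and Tgfb3, Inhba and Tgfbi were not called. Inhbb was too low to be tested. Of the 10 genes, 9 passed the filter on low counts, and 6 of these were called by edgeR's quasi-likelihood test at an adjusted p-value under 0.05, 1 higher and 5 lower. Between 4 and 7 were called with 1 library left out, and only 3 lower ones without central replicate 2. Over all 14610 genes tested, 22.9% were called, 10.7% higher and 12.3% lower, a count of 3351 genes that fell to 2009 without anterior replicate 2. The values of the 2 groups did not overlap for 7 of the 9 tested members, against 63.5% of all tested genes, and those of Inhbb overlapped. The median log2 fold change (anterior minus central) of the 9 tested genes was -0.81, beside -0.00865 over all tested genes. The sizes differed widely, from a 6.34-fold lower level of Tgfb2 to a 1.16-fold lower level of Tgfbr1.

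**Figure D2:**
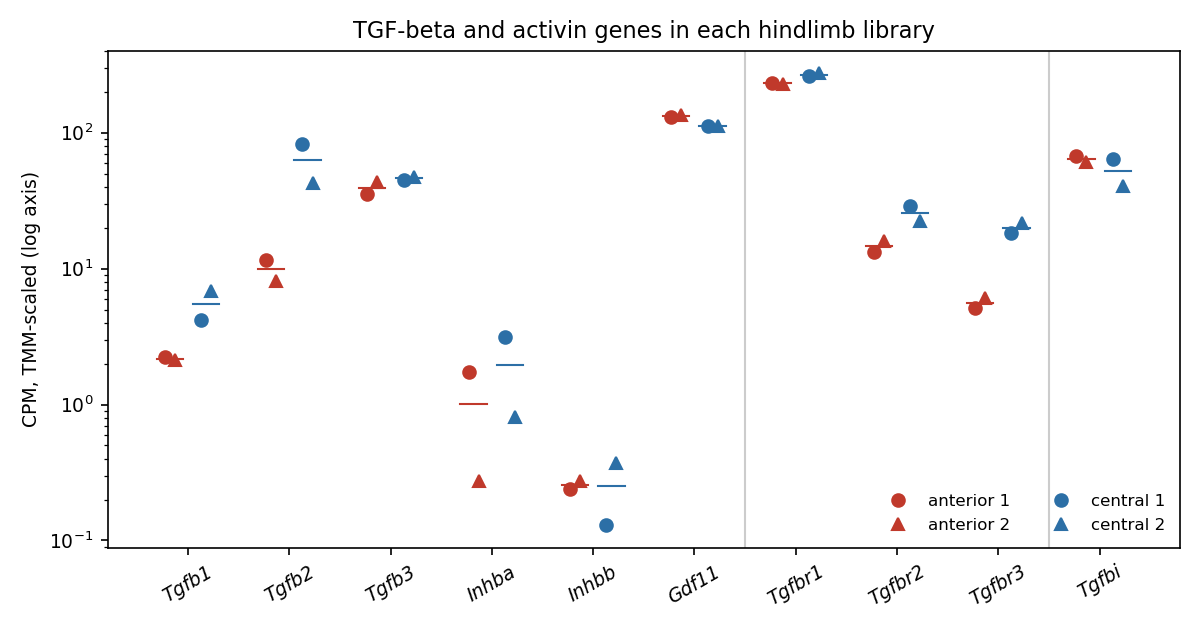
CPM (TMM-scaled, log axis) of the 10 genes in each library, with ligands, receptors and Tgfbi parted by grey lines; red symbols are anterior, blue are central, circles replicate 1 and triangles replicate 2, and short lines are group means. CPM is not divided by gene length, so heights compare libraries within a gene; Tgfb2 and Tgfbr3 show the widest gaps between groups, and Inhba splits by replicate within both groups.

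Tgfb2 (mm10 chr1:186622792-186705989, minus strand), which encodes the TGF-beta isoform most studied in heart valves and skeletal development, had the largest difference of the family. It had 389 and 236 counts in anterior cells, or 11.7 and 8.05 CPM, and 2547 and 1389 counts in central cells, or 82.7 and 42.9 CPM. Both central libraries were far above both anterior ones, although the central replicates themselves differed by 1.93-fold. The mean was 9.85 ± 2.56 CPM in anterior and 62.8 ± 28.1 in central cells (SD, n = 2). The log2 fold change was -2.67 (SE 0.30; adjusted p = 0.000374 by edgeR). With any 1 library left out the log2 fold change stayed between -3.06 and -2.12. The higher central library, replicate 1, was also the one with more chondrogenic marker RNA (1500 against 1190 CPM) and less surface ectoderm marker RNA (50 against 160 CPM). Col2a1 made up 900 and 676 CPM of these chondrogenic sums. The other marker lists, apart from the endothelial and erythroid ones, were also higher in that library, and a link to Tgfb2 was not tested.

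The 250 bases before the Tgfb2 start (RefSeq, GRCm38.p6, chr1:186705990-186706239, minus strand) and the 250 bases before the Tgfbr2 start (chr9:116175364-116175613, minus strand) are shown because these are the ligand and the receptor with the largest falls for which a start-site sequence was matched, as was the case for 8 of the 10 genes. Capitals mark the Smad half-element CAGAC (or GTCTG, on either strand), the E-box CACGTG and, on the strand shown, TATAAA.
Tgfb2: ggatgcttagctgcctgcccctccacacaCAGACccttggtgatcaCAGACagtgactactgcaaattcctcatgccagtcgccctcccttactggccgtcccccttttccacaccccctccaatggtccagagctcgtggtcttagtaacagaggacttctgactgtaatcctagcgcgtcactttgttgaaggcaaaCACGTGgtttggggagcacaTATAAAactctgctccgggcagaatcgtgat
Tgfbr2: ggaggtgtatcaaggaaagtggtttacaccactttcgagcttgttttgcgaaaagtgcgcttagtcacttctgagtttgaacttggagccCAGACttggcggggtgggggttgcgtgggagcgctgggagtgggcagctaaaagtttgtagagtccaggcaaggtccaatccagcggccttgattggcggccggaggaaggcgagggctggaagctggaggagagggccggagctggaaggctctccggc
The Tgfb2 window holds 2 Smad half-elements, starting 221 and 204 bases before the start, 1 E-box at 51 bases and 1 TATAAA at 31 bases. The Tgfbr2 window holds 1 Smad half-element at 160 bases and neither of the other motifs. Among all 32851 windows of the same 250 bases before a start, 42.2% hold a Smad half-element, 6.02% the E-box and 7.59% TATAAA, so the first is common. The windows of Tgfb1, Inhba, Inhbb and Gdf11 hold no Smad half-element, and that of Tgfbi, which was not called, holds 2. Tgfbr1 has 2 listed starts, of which 1 window holds 1 and the other none. A match describes letters only and is not a measured binding site.

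Tgfb1 (chr7:25687002-25705077, plus strand), which encodes the isoform known for immune and vascular roles, was also lower in anterior cells but at a much lower level. It had 74 and 62 counts in anterior cells, or 2.22 and 2.11 CPM, against 129 and 222 in central cells, or 4.19 and 6.86 CPM. The groups did not overlap, and the central replicates were again the more variable pair. The log2 fold change was -1.35 (SE 0.32; adjusted p = 0.0166 by edgeR), a 2.55-fold lower level. Central replicate 2 carried part of it: without that library the log2 fold change was -0.95 and the adjusted p-value 0.0859. That library also had the higher endothelial (40.7 against 34.4 CPM), ectodermal (160 against 50 CPM) and erythroid (8.31 against 5.39 CPM) marker sums of the central pair. The other marker lists were higher in the other central library, and a link to Tgfb1 was not tested.

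Tgfb3 (chr12:86056745-86079041, minus strand), whose product acts in palate fusion and is expressed in tendon progenitors, was not called. Its anterior libraries had 1185 and 1264 counts, or 35.5 and 43.1 CPM, and its central libraries had 1384 and 1535, or 44.9 and 47.4 CPM. The groups lay next to each other without overlapping, at a log2 fold change of -0.23 (SE 0.11; adjusted p = 0.161 by edgeR).

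Set side by side per kb of exon, the make-up of the TGF-beta ligands differed between the populations. RPKM values (CPM per kb of the merged exons in GENCODE M21) were summed over the 3 ligand genes in each library. Tgfb3 made up 81.1% and 87.6% of that sum in anterior cells and 46.8% and 61.5% in central cells. Tgfb2 made up 15.5% and 9.55% in anterior and 50.3% and 32.5% in central cells. Tgfb1 stayed between 2.88% and 5.97% in the 4 libraries. Thus Tgfb3 was the predominant transcript of these 3 TGF-beta ligand genes in anterior cells. In central cells the ranges of Tgfb2 and Tgfb3 overlapped, with Tgfb2 at 14.3 and 7.41 RPKM and Tgfb3 at 13.3 and 14.0 RPKM. The groups did not overlap in the share of Tgfb2 or of Tgfb3. The exact two-sided permutation p-value of each was 0.333, which is the smallest that 2 libraries against 2 can give.

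**Figure D3:**
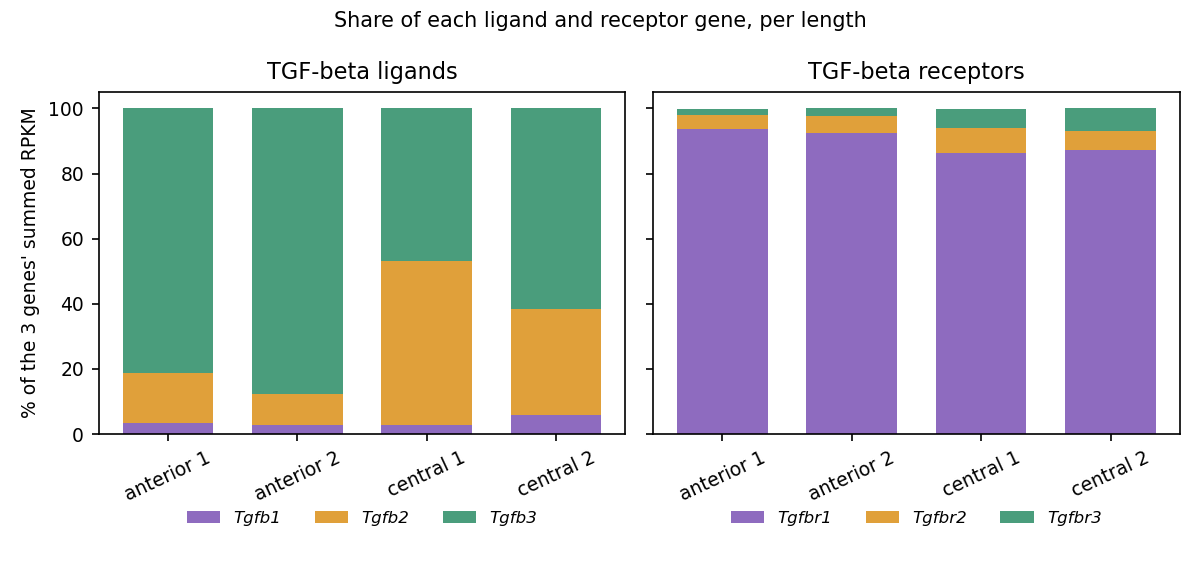
Share of each gene in the summed RPKM of the 3 TGF-beta ligand genes (left) and the 3 TGF-beta receptor genes (right), in percent, 1 bar per library. Tgfb2 takes 9.55% to 15.5% of the ligand sum in anterior and 32.5% to 50.3% in central libraries, and Tgfbr1 takes most of the receptor sum in every library.

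The activin subunit genes were low in both populations. Inhba (chr13:16011851-16031621, plus strand), which encodes the subunit of activin A, had 58 and 8 counts in anterior cells, or 1.74 and 0.27 CPM, and 96 and 26 in central cells, or 3.12 and 0.80 CPM. Its values followed the replicate number more than the population: replicate 1 exceeded replicate 2 by 6.38-fold in anterior and by 3.88-fold in central cells, and the groups overlapped. The log2 fold change of -0.94 ± 0.82 (SE) was not called (edgeR adjusted p-value 0.467). It was -2.82 without anterior replicate 1, and changed sign to 0.34 without central replicate 1. Inhbb (chr1:119415465-119422248, minus strand), encoding the subunit of activin B, had 8 counts in each anterior library and 4 and 12 in the central ones. At this depth no difference in Inhbb was detectable.

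Gdf11 (chr10:128882295-128891718, minus strand) was by contrast abundant, and was the only member of the family called higher in anterior cells. It had 4363 and 3942 counts there, or 130.8 and 134.4 CPM, and 3463 and 3642 in central cells, or 112.4 and 112.5 CPM. Replicates agreed closely and the groups did not overlap, but the difference was small, 1.18-fold. Its log2 fold change was 0.24 (SE 0.06; adjusted p = 0.029 by edgeR). The call was lost with upper-quartile scaling (adjusted p-value 0.0521) and without anterior replicate 1 (0.125) or anterior replicate 2 (0.22), at log2 fold changes of 0.20, 0.26 and 0.22.

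All 3 receptor genes were lower in anterior cells, by very different amounts. Tgfbr3 (chr5:107106570-107289629, minus strand) encodes betaglycan, a co-receptor known to present TGF-beta2, in particular, to the signalling receptors. It had 171 and 178 counts in anterior cells, or 5.13 and 6.07 CPM, and 564 and 703 in central cells, or 18.3 and 21.7 CPM. Replicates were close and the groups were well apart, with means of 5.60 ± 0.67 and 20.02 ± 2.41 CPM (SD, n = 2 each). The log2 fold change was -1.84 (SE 0.17; adjusted p = 0.000133 by edgeR), a 3.58-fold lower level, and lay between -1.96 and -1.71 with any 1 library left out.

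Tgfbr2 (chr9:116084293-116175360, minus strand), the ligand-binding type II receptor gene whose promoter is shown above, had 445 and 468 counts in anterior cells, or 13.3 and 15.95 CPM, and 885 and 728 in central cells, or 28.7 and 22.5 CPM. The groups did not overlap, and the level was 1.75-fold lower in anterior cells. The log2 fold change was -0.81 (SE 0.16; adjusted p = 0.00659 by edgeR), and remained called with any 1 library left out.

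Tgfbr1 (chr4:47353222-47414931, plus strand), the type I receptor gene, had 7744 and 6709 counts in anterior cells, or 232 and 229 CPM, and 8021 and 8843 in central cells, or 260 and 273 CPM. At a difference of 1.16-fold, the groups did not overlap. Its log2 fold change was -0.21 (SE 0.06; adjusted p = 0.0385 by edgeR). The call was lost without anterior replicate 1 (adjusted p-value 0.202), anterior replicate 2 (0.289) or central replicate 2 (0.0507), at log2 fold changes of -0.22, -0.19 and -0.17. Of the RPKM summed over the 3 receptor genes, Tgfbr1 made up 93.6% and 92.4% in anterior and 86.3% and 87.3% in central cells, and Tgfbr3 made up 2.06% and 2.45% against 6.06% and 6.93%. The exact two-sided permutation p-value of both shares was again 0.333, the smallest possible.

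Tgfbi (chr13:56609523-56639562, plus strand), an extracellular matrix protein gene named for its induction by TGF-beta, was not called. It had 2259 and 1791 counts in anterior cells, or 67.7 and 61.05 CPM, and 1971 and 1321 in central cells, or 64.0 and 40.8 CPM. Central replicate 1 lay among the anterior values and central replicate 2 below them. The log2 fold change was 0.30 (SE 0.18, adjusted p = 0.27 by edgeR). It was 0.66 without central replicate 1 and 0.01 without central replicate 2.

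**Figure D4:**
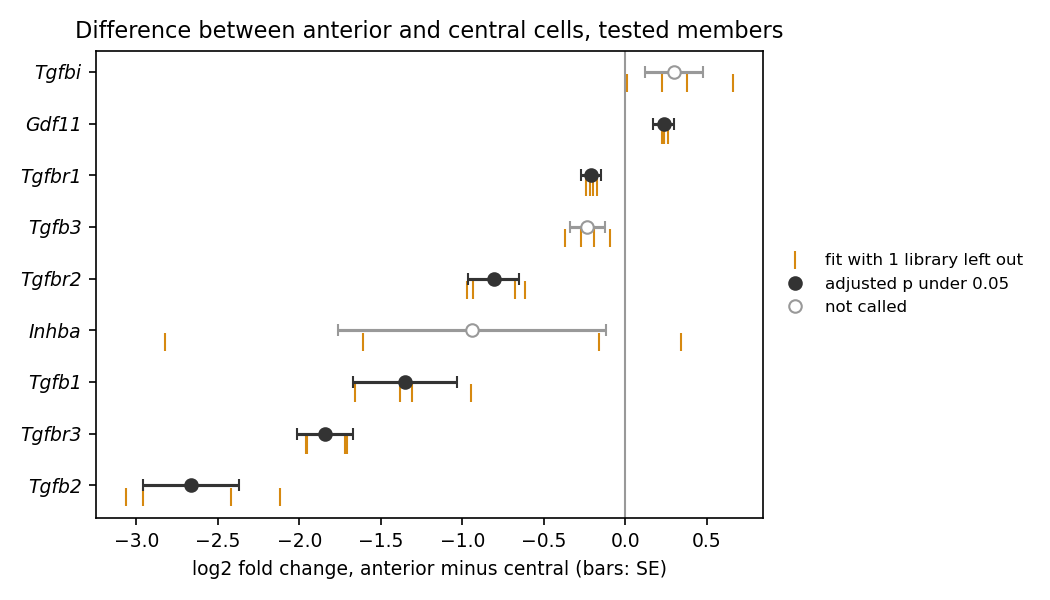
Log2 fold change, anterior minus central, of the 9 tested genes, with bars for the SE; filled points had an edgeR adjusted p-value under 0.05, open points did not, and orange ticks are the values with 1 library left out. Tgfb2 (-2.67) and Tgfbr3 (-1.84) lie farthest from 0, and the ticks of Inhba spread from -2.82 to 0.34.

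Ranked by RPKM, the order was similar in both populations. Tgfbr1 came first, at 35.3 ± 0.37 RPKM in anterior and 40.8 ± 1.38 in central cells (SD, n = 2 each), and Gdf11 second, at 32.6 ± 0.62 and 27.7 ± 0.01. Tgfbi and Tgfb3 followed, at 17.1 ± 1.25 and 11.6 ± 1.58 RPKM in anterior cells and at 13.9 ± 4.35 and 13.65 ± 0.52 in central cells. In anterior cells Tgfbr2 and Tgfb2 (1.79 ± 0.23 and 1.70 ± 0.44 RPKM) had overlapping ranges, as did Inhba and Inhbb. In central cells Tgfbi, Tgfb3 and Tgfb2 overlapped as neighbours, with Tgfb2 at 10.8 ± 4.86 RPKM, and so did Tgfbr2 and Tgfbr3 at 3.13 ± 0.54 and 3.06 ± 0.37. Below them came Tgfb1, at 0.43 ± 0.01 and 1.10 ± 0.37 RPKM. These levels depend on the merged exon lengths of GENCODE M21, since the annotation used for counting is not given in the sources used here.

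The genes whose log2 CPM, centred over the 4 libraries, lay nearest to that of Tgfb2 were the Wnt antagonist gene Dkk2, the guidance gene Sema3d and the cartilage collagen gene Col2a1, at Euclidean distances of 0.389, 0.391 and 0.399 on the log2 scale. Dkk2 measured 3.06 and 1.94 CPM in anterior and 15.4 and 10.35 in central cells. Col2a1, which is also in the chondrogenic marker list, measured 140 and 96.6 CPM in anterior and 900 and 676 in central cells. For Gdf11 the nearest were Ppp1r15b, Prkcd and Kantr, at distances of 0.00748, 0.0105 and 0.0149, of which Ppp1r15b was called (log2 fold change 0.24, edgeR adjusted p-value 0.0263). That call was lost without anterior replicate 1 (0.115) or anterior replicate 2 (0.216). With 4 libraries many genes share such a pattern.

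The rest of the pathway was described over 76 further genes in 6 lists by role. Of these, 65 were tested and 32 were called, 9 higher and 23 lower in anterior cells. That is 49.2% of those tested, against 22.9% of all tested genes, and their median log2 fold change was -0.29. The median was the same with the 2 genes at or under 3 counts in a whole group, Mstn and Gdf15, set to their bounds. Each stayed on its side of the median, so this step could not have moved it. Called genes made up 71.4% of the tested antagonists, 62.5% of the genes for latency and activation and 62.5% of the target genes, while the receptors (22.2%) and the Smads (21.4%) were near the share of all genes.

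Of 10 other ligands and subunits, 3 were tested, 2 of them lower and none higher. Inha, the inhibin alpha subunit that opposes activin, had 258 and 231 counts in anterior and 397 and 420 in central cells, with a log2 fold change of -0.73 (SE 0.16; adjusted p = 0.0125 by edgeR). Mstn, which encodes the muscle growth inhibitor myostatin, was named after its values were seen. It was without a count in the anterior libraries and had 36 and 40 counts in central cells. With 0 counts taken to allow up to 3, it was at least 12.5-fold lower, and this bound would be smaller if both mates were counted. The myogenic markers differed in the same direction, at 2.35 to 4.17 against 142 to 143 CPM. Inhbe, Gdf1, Gdf3 and Lefty2 had 0 counts in all 4 libraries.

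Of 10 other receptors and co-receptors, 9 were tested, 1 higher and 1 lower. Without central replicate 2 the counts were 3 and 0, and without anterior replicate 2 they were 1 and 0. Bambi, a pseudoreceptor that dampens TGF-beta and BMP signalling, was higher in anterior cells, at 87.25 and 87.6 CPM against 31.6 and 28.4. The replicates lay close together and the groups far apart (log2 fold change 1.54, SE 0.09, adjusted p = 8.23e-06 by edgeR). Eng, the endothelial co-receptor endoglin, was lower, at 2.998 and 2.11 CPM against 5.03 and 6.83 (log2 fold change -1.21, SE 0.30, adjusted p = 0.0197 by edgeR from the same fit). Its call was lost without anterior replicate 2 (0.0853) or central replicate 2 (0.0621). Endothelial markers were lower with it, at 9.86 to 12.2 against 34.4 to 40.7 CPM. The activin receptor genes Acvr2b, Acvr2a and Acvr1b were not called with all 4 libraries. Acvr2b, a type II receptor gene, had 70.4 and 76.8 RPKM in anterior and 59.5 and 72.0 in central cells, Acvr2a had between 9.40 and 10.3 RPKM in all libraries, and the type I receptor gene Acvr1b had between 10.6 and 14.1. Without central replicate 2, the log2 fold changes of Acvr2b and Acvr1b were 0.31 and 0.37.

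Among 17 genes for latency, activation and processing, 16 were tested, 3 higher and 7 lower. Thbs1, encoding thrombospondin 1, an activator of latent TGF-beta, measured 10.7 and 7.77 CPM in anterior and 112.3 and 90.9 in central cells. This 10.9-fold lower level was the largest difference of the list (log2 fold change -3.45, SE 0.16, adjusted p = 3.52e-06 by edgeR). The microfibril gene Fbn1, whose product anchors latent complexes, was lower at 30.6 and 24.95 against 81.2 and 69.5 CPM (log2 fold change -1.44). In the other direction, Pcsk6, a furin-type protease gene, was higher at 71.0 and 54.6 against 23.6 and 19.6 CPM (log2 fold change 1.54 ± 0.14 SE). The 4 latent TGF-beta binding protein genes split, with 1 higher, 2 lower and Ltbp2 not called. Ltbp1 was higher at a log2 fold change of 0.52 (edgeR adjusted p-value 0.01), and Ltbp3 was lower at -0.48 (0.0456). Ltbp4, named after its values were seen, was lower at 40.8 and 38.1 against 78.1 and 76.55 CPM (log2 fold change -0.97, edgeR adjusted p-value 7.34e-05). The Ltbp3 call was lost with limma-voom (0.0537), without anterior replicate 2 (0.22) and without central replicate 1 (0.206).

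All 7 extracellular antagonist genes were tested, and 4 were lower and 1 higher. Fst, encoding follistatin, which binds and blocks activins and GDF11, had 7 and 2 counts in anterior cells and 450 and 411 in central cells. At 0.21 and 0.07 CPM against 14.6 and 12.7, the anterior level was close to the lowest that can be measured and 92.9-fold below the central one (log2 fold change -6.54, SE 0.37, adjusted p = 8.32e-06 by edgeR). Leaving out anterior replicate 1 moved it to -7.56. The small matrix proteoglycan genes Dcn and Fmod were lower by log2 fold changes of -3.97 and -3.51, which became -4.95 and -4.38 when anterior replicate 1 was left out. Bgn, also a proteoglycan gene and the 1 gene called higher, named after its values were seen, measured 49.1 and 51.3 CPM against 22.15 and 22.7 (log2 fold change 1.16).

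Of 15 Smads and regulators, 14 were tested, 2 higher and 1 lower. This count of 3 became 1 without anterior replicate 2, 6 without central replicate 2, 5 with DESeq2 and 6 without a filter. Smad2, Smad3 and Smad4 were not called, at log2 fold changes of 0.13, 0.04 and 0.18 and edgeR adjusted p-values of 0.192, 0.735 and 0.0559. Smad4 passed with DESeq2 (0.0418) and without a filter (0.0481). Its log2 fold change was 0.19 without central replicate 1 and 0.18 without central replicate 2. Smad7, the inhibitory Smad that TGF-beta and BMP signals induce, was higher in anterior cells, at 122.1 and 103.9 CPM against 60.8 and 61.3. The groups were well apart (log2 fold change 0.89, SE 0.09, adjusted p = 0.000218 by edgeR). The repressor gene Skil was slightly higher (log2 fold change 0.27) and the ubiquitin ligase gene Nedd4l lower (-0.55). Both calls were lost when an anterior library was left out. Skil had an adjusted p-value of 0.0932 without anterior replicate 1 and 0.135 without anterior replicate 2, and Nedd4l had 0.0621 without anterior replicate 2.

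Of 17 widely used target genes, 16 were tested, 2 higher and 8 lower. Ccn2, a classic target encoding a matricellular growth factor, was not called, at a log2 fold change of -0.52 and an edgeR adjusted p-value of 0.171. Without anterior replicate 1 its log2 fold change was -0.94. The largest falls were in Acta2, the smooth muscle actin gene, with 13 and 2 counts against 456 and 145, in Cdkn1a, a cell cycle inhibitor gene, with 62 and 40 against 474 and 721, and in the matrix gene Postn, with 37 and 6 against 280 and 188. Their log2 fold changes were -5.32, -3.54 and -3.46, with edgeR adjusted p-values of 0.00129, 3.39e-05 and 0.00306. Cdkn1a stayed between -3.78 and -3.25 with any 1 library left out, while the anterior counts of Acta2 and Postn were few. Acta2 moved to -7.06, -4.61, -4.23 and -5.94 without anterior replicate 1, anterior replicate 2, central replicate 1 and central replicate 2, and Postn moved to -5.16 and -2.74 without the first and the second anterior library. The 2 higher genes, named after their values were seen, were the transcription factor genes Snai1 and Snai2, at log2 fold changes of 0.55 and 1.38. The list is mixed in cell type, and muscle (2.35 to 4.17 against 142 to 143 CPM) and tendon markers (97.8 to 112 against 443 to 447 CPM) were lower in anterior cells alongside it. The target and tendon lists are not separate, since both hold Scx, at 10.6 and 10.1 CPM in anterior and 101.9 and 103.7 in central cells.

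**Figure D5:**
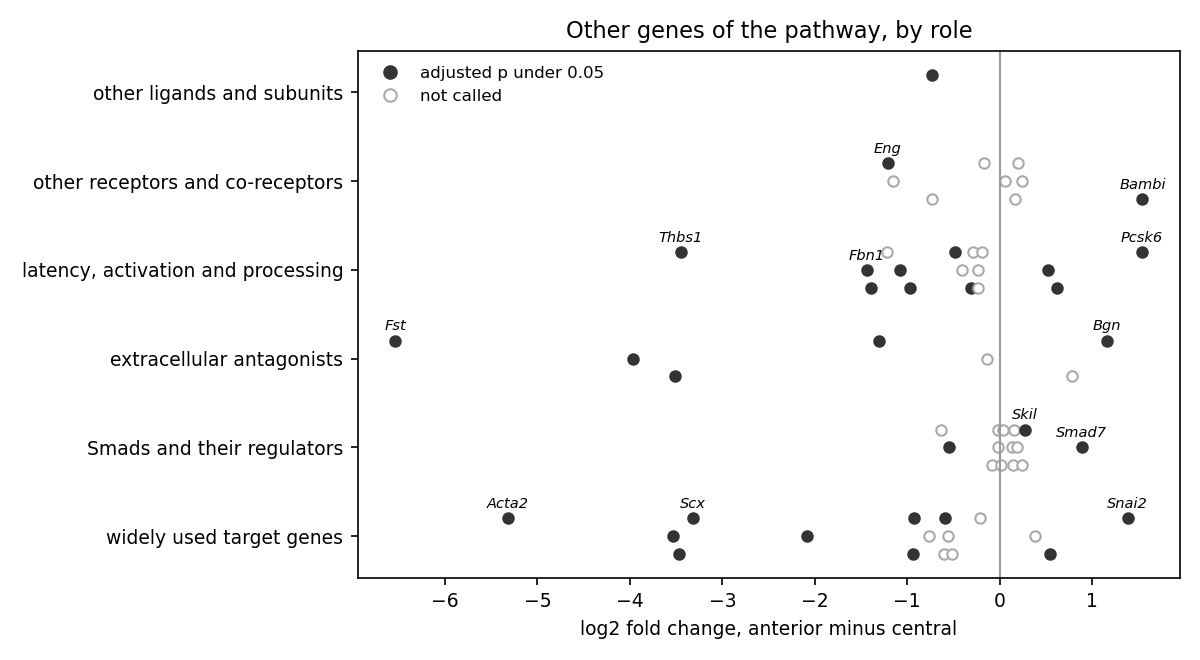
Log2 fold change, anterior minus central, of 63 tested pathway genes outside the family, by role; filled points had an edgeR adjusted p-value under 0.05. Mstn and Gdf15 are left out because a whole group had at most 3 counts. Antagonists and targets reach to -6.54 (Fst) and -5.32 (Acta2), and most Smads lie near 0.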

How the data were processed

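The authors deposited whole-number read counts per gene symbol, not normalized; the submitters' processing notes name STAR 2.7.9a, HTSeq and mm10, and strand use and annotation are not given in the sources used here. Columns were matched to samples by title, with 0 left unmatched. Even numbers made up 72.8% to 75.6% of counts from 1 to 10, as when both mates are counted, so halved counts were also fitted. The fit used edgeR 4.0.16 (limma 3.58.1, R 4.3.3): filterByExpr, TMM, quasi-likelihood F test, no block, 2 residual degrees of freedom, Benjamini-Hochberg over all tested genes, threshold 0.05. The quasi-likelihood test moderates each gene's variance towards a trend over all genes, so p-values do not rest on the 2 degrees of freedom alone. The SE is the absolute log2 fold change over the square root of F. Floors (3 counts) cover counting error only and treat each count as a separate read, so they would be higher, and bounds weaker, if both mates were counted. Replicates differed by more than sampling noise (chi-square per degree of freedom 16 and 8.96 on halved counts). Alternatives included DESeq2 1.42.0. The code was tested on simulated data.

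The genes and lists were chosen with earlier results of these data known. Named were the 10 family genes, up to 3 called genes per list with the largest change and a mean CPM of at least 1, 12 fixed pathway genes (1 is not reported here), and the 3 genes nearest to Gdf11 and to Tgfb2 (mean CPM of at least 5). Exons overlap on the opposite strand by 124 bp for Tgfb2 (Gm29491) and by 257 bp and 163 bp for Tgfb3 (Gm48008, Gm37804). Reads there cannot be told apart where strand was not used. On the same strand, exons overlap by 297 bp for Tgfbr3 (Gm43422), where strand use could not tell reads apart either. None of these overlapping genes is among the symbols of the count table. Promoter sequences are from RefSeq. Protein sequences were not used here.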

Additional observations from a re-analysis of the deposited data

How the results depend on the processing

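The count of genes called, 3351, ranged from 2009 (without anterior replicate 2) to 3697 (without central replicate 2) when 1 library was left out, and from 2957 to 3864 under the other settings. Fits with a library left out assume that the lone library of a group varies like the other group. Members called numbered 6 in all but one of the other settings (5 with upper-quartile factors, which took Gdf11 out) and 4 to 7 with 1 library left out. Further pathway genes called, 32, ranged from 28 to 38. The largest shift of the median over all genes from another scaling was -0.0374 (log2, upper-quartile factors). A replicate block in the model gave 3586 calls and changed no call among the 40 tested genes named. The replicate differences of the 2 groups correlated at 0.0463 across genes, which are not independent replicates. This value cannot show whether samples with the same replicate number pair, and the labels give only the number. Signs changed for Smad3 (-0.0022 with upper-quartile factors) and, over the fits with 1 library left out, for Inhba (-2.82 to 0.34) and Acvr2a (-0.0032 to 0.1245); the cause was not tested. Inhba and Fmod have no value under some filters. Depth limits Inhbb, with at most 12 counts.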
